A study of Mus musculus with 8 samples.

Results

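The genes described here encode the splicing factors of mouse cells whose symbols begin with Srsf (followed by a digit), Hnrnp, Sf3a, Sf3b, U2af or Prpf (followed by a digit). They were selected by symbol from the deposited count table, which held 59 such rows. The 3 symbols ending in -ps were left out, and 56 of the 36255 genes remained, in 3 classes of 11 SR genes, 20 hnRNP genes and 25 spliceosome genes. All 56 passed the filter on low counts. The symbol rule used no measured value, but the classes were taken up with earlier results of these libraries known, so the counts over a class given here are a description and are not used as evidence about it. Poly(A)-selected RNA was sequenced from 4 groups of 2 libraries each. The groups were day 2 embryoid bodies (EBd2) with knockout (KO) of Skp1a, EBd2 with floxed Skp1a (fl/fl), embryonic stem (ES) cells with Skp1a KO and fl/fl ES cells. Skp1a encodes the adaptor that joins F-box proteins to the cullin of SCF ubiquitin ligases. Embryoid bodies are aggregates in which ES cells start to differentiate. The series set Skp1 knockout against wild-type expression at either stage, and its title names degradation of the Polycomb complex PRC2. The labels do not say how and when the floxed alleles were deleted, or whether the KO cells are 1 clone or several. Libraries are numbered by lots, and nothing says that lots are separate cultures, so the p-values rest on a spread between libraries that may be technical.

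Introns are removed from precursor RNA by the spliceosome. U2AF, encoded by U2af1 and U2af2, reads the pyrimidine tract and the AG at the intron's end, and the SF3A and SF3B complexes then hold the U2 particle at the branch point. The PRPF proteins belong to the particles that join later and to the catalytic core. SR proteins bind exonic enhancers and recruit these particles, while many hnRNP proteins bind silencers and oppose inclusion of an exon, so their balance sets which exons are kept. Many SR and hnRNP genes control their own transcripts through exons that lead to decay of the RNA. ES cells are known for high splicing activity, and their exon choice shifts as they leave pluripotency.

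Total counts per library ran from 7858452 to 10055667 in EBd2 and from 21545868 to 23343471 in ES cells. Levels are in CPM (the usual scaling of counts to library size, here after TMM factors) unless a sentence says otherwise. Skp1a was lower but present in the libraries labelled KO, with 288 ± 2.67 CPM in KO EBd2 against 395 ± 8.74 CPM in fl/fl EBd2, while in ES cells the values were 365 ± 5.35 CPM in KO against 425 ± 7.19 CPM in fl/fl (SD, n = 2 each). Reads from outside the deleted part would count towards these values, and the labels do not name the deleted exons. In the tissue field every KO library is called an ES cell and every fl/fl library an embryoid body. This goes against the sample titles, which were followed. The 4 general pluripotency markers summed to 1270 to 1310 CPM in KO EBd2 against 2200 to 2270 CPM in fl/fl EBd2, and to 1810 to 1840 CPM in KO ES cells against 2120 to 2140 CPM in fl/fl ES cells. The 7 naive ES cell markers summed to 1100 to 1170 CPM in KO EBd2 against 747 to 814 CPM in fl/fl EBd2, and to 1930 to 1940 CPM in KO ES cells against 2180 to 2190 CPM in fl/fl ES cells. The sum of general pluripotency markers was thus lower in KO at both stages. The naive sum was higher in KO EBd2 and lower in KO ES cells, but single naive markers went the other way. Among them, Esrrb was lower in KO EBd2 and Nanog was higher in KO ES cells. The 4 formative epiblast markers summed to 306 to 321 CPM in KO EBd2 against 1670 to 1790 CPM in fl/fl EBd2, the 5 endoderm markers to 436 to 448 CPM in KO EBd2 against 167 to 171 CPM in fl/fl EBd2, and the 3 primitive streak markers to 145 to 150 CPM in KO EBd2 against 17.0 to 18.4 CPM in fl/fl EBd2. Of the 18 fibroblast feeder markers, 17 passed the filter on low counts and entered the sums. These were 414 to 452 CPM in KO EBd2 against 93.0 to 102 CPM in fl/fl EBd2. In ES cells the sums were 987 to 1060 CPM in KO against 834 to 874 CPM in fl/fl. No marker was at 0 in any group. These differences in marker RNA go with the comparisons of genotype below, and their part in the results was not tested. In such bulk libraries fewer cells of a type and less RNA per cell cannot be told apart.

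The summed RNA of the hnRNP genes stood furthest apart between KO and fl/fl EBd2. It was 7992 ± 42.8 CPM in KO EBd2 against 13110 ± 30.0 CPM in fl/fl EBd2, while in ES cells the values were 9080 ± 6.58 CPM in KO against 10500 ± 150 CPM in fl/fl (SD, n = 2 each). From ES cells to EBd2, the hnRNP sum was therefore higher in fl/fl cells and lower in KO cells. The SR sum was 2644 ± 41.1 CPM in KO EBd2 against 4007 ± 61.1 CPM in fl/fl EBd2, while in ES cells the values were 2298 ± 51.7 CPM in KO against 2396 ± 19.7 CPM in fl/fl. The spliceosome sum was 4174 ± 22.2 CPM in KO EBd2 against 5015 ± 28.3 CPM in fl/fl EBd2, while in ES cells the values were 4187 ± 0.706 CPM in KO against 4621 ± 6.69 CPM in fl/fl. In all 6 of these pairs of KO and fl/fl sums the libraries of the groups did not overlap, although as a share of raw counts the SR genes took 0.233% and 0.226% in KO ES cells against 0.230% and 0.226% in fl/fl ES cells, which overlap. With 2 libraries against 2 an exact permutation test cannot go below 0.333. A ratio of raw counts needs no scaling between libraries. There were 1.915 hnRNP counts per spliceosome count in both KO EBd2 libraries, against 2.629 and 2.600 in fl/fl EBd2. In ES cells the ratio was 2.170 and 2.168 in KO libraries, against 2.252 and 2.293 in fl/fl libraries. The ratio of SR to spliceosome counts was 0.629 and 0.638 in KO EBd2 against 0.811 and 0.787 in fl/fl EBd2, while in ES cells the values were 0.558 and 0.540 in KO against 0.522 and 0.515 in fl/fl. It was thus lower in KO than in fl/fl libraries in EBd2 and higher in ES cells. All 56 members together took 1.62% and 1.66% of counts in KO EBd2 against 2.09% and 2.10% in fl/fl EBd2, while in ES cells the values were 1.56% and 1.55% in KO against 1.66% and 1.67% in fl/fl. The share of mitochondrial counts also moved with genotype. It was 3.15% and 3.24% in KO EBd2 against 2.70% and 2.28% in fl/fl EBd2, while in ES cells the values were 2.43% and 2.42% in KO against 1.76% and 1.73% in fl/fl. Its part in the results was not tested beyond a fit without mitochondrial and Gm genes, in which 50 members were called in EBd2 and 28 in ES cells.

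**Figure D1:**
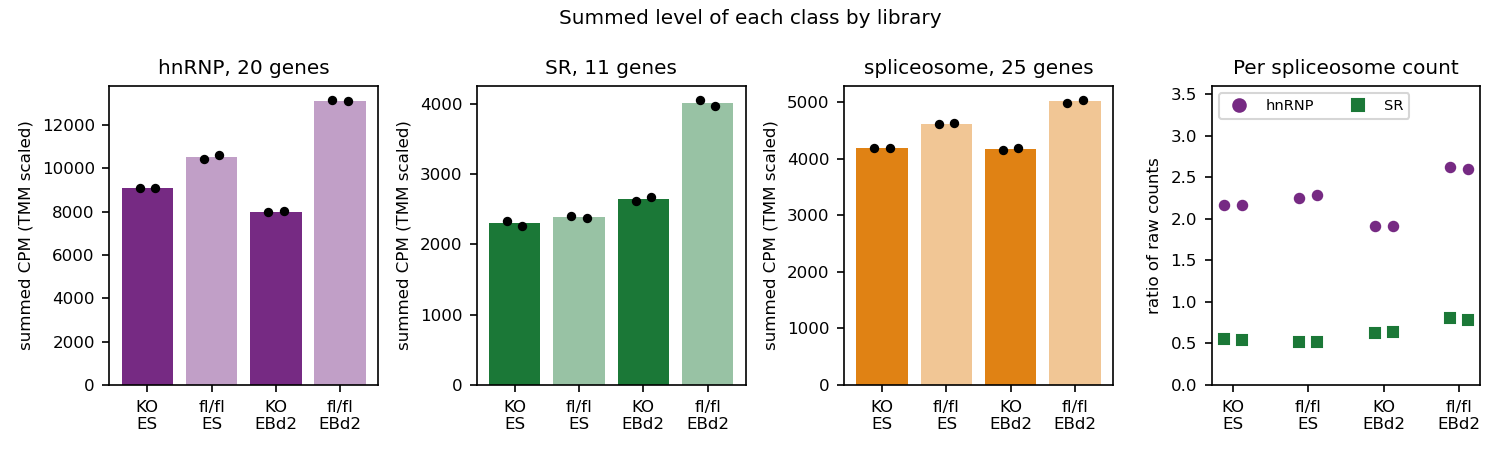
Summed level of the 20 hnRNP, 11 SR and 25 spliceosome genes (CPM, TMM scaled; bars are means of 2 libraries, dots are libraries), and the ratio of hnRNP and of SR counts to spliceosome counts in each library (raw counts). KO bars are darker than fl/fl bars, and the hnRNP sum is lowest in KO EBd2, at 7992 CPM, and highest in fl/fl EBd2, at 13110 CPM.

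Between KO and fl/fl EBd2, 49 of the 56 members were called, 4 higher and 45 lower, at an adjusted p below 0.05 (edgeR quasi-likelihood test, Benjamini-Hochberg adjustment over the 16542 genes tested). Of all genes tested, 62.2% were called, 30.7% higher and 31.5% lower. The median log2 fold change was -0.47 over the members and 0.00 over all genes. With library sizes alone in place of TMM factors, the median of all genes moved to 0.23, and 9 members were called higher and 32 lower. Changes beyond 1.5-fold (edgeR glmTreat, same threshold) were called for 18 members, 1 higher and 17 lower, against 23.6% of all genes. With library sizes alone 6 members passed that test. All shares of all genes called in this text come from the fit with TMM factors, so they are no background for counts with library sizes alone.

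All 20 hnRNP genes fell in KO EBd2, with a median log2 fold change of -0.73. With library sizes alone, Hnrnph2 and Hnrnpul2 turned to 0.04 and 0.08. The call of Hnrnpul1 was lost there, at -0.09 (edgeR adjusted p = 0.053). None of the 20 genes was called higher in the fit with TMM factors, also at an unadjusted p below 0.05. DESeq2 gave 0 higher as well, adjusted or not. For 12 of them the fall passed the test beyond 1.5-fold. The steepest was that of Hnrnph3, a smaller relative of the G-run binder Hnrnph1, at chr10:63014664-63024217 (GRCm38, minus strand). It had 29.5 and 26.1 CPM in KO EBd2, against 72.7 and 79.7 CPM in fl/fl EBd2, a log2 fold change of -1.46 ± 0.07 (SE, edgeR adjusted p = 2.0e-08). Its ES cell levels were 77.5 and 81.7 CPM in KO and 95.2 and 96.6 CPM in fl/fl, so KO EBd2 stood apart from the other 3 groups. Hnrnph1 itself fell by 0.34 ± 0.04 on the log2 scale, and Hnrnph2, its X-linked relative, by 0.19 ± 0.05. Without KO EBd2 lot 2 the call of Hnrnph2 was lost, at -0.13 and an edgeR adjusted p of 0.063.

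Hnrnpa1, which binds exonic silencers and represses inclusion of exons, was the most abundant member in fl/fl cells. It had 791 and 776 CPM in KO EBd2 against 1561 and 1538 CPM in fl/fl EBd2, while in ES cells the values were 1304 and 1297 CPM in KO against 1557 and 1575 CPM in fl/fl. The EBd2 difference was -0.98 ± 0.03 on the log2 scale (edgeR adjusted p = 7.8e-10). Its relatives fell as well. Hnrnpa2b1 had 749 and 816 CPM in KO EBd2 against 1423 and 1420 CPM in fl/fl EBd2, a difference of -0.86 ± 0.04, and 933 and 914 CPM in KO ES cells against 1092 and 1120 CPM in fl/fl ES cells. Hnrnpa3 had 422 and 422 CPM in KO EBd2 against 767 and 747 CPM in fl/fl EBd2, while in ES cells the values were 711 and 734 CPM in KO against 797 and 848 CPM in fl/fl. In both genes, as in Hnrnpa1, KO EBd2 libraries were the lowest of all. Hnrnpa0 and Hnrnpab fell by 0.85 ± 0.03 and 0.72 ± 0.04 in KO EBd2.

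Hnrnpd, known as AUF1, a binder of AU-rich elements that steers the decay of mRNA, had 244 and 255 CPM in KO EBd2 against 497 and 487 CPM in fl/fl EBd2. Its log2 fold change was -0.98 ± 0.04 (edgeR adjusted p = 7.2e-09). In ES cells it had 207 and 200 CPM in KO against 233 and 251 CPM in fl/fl. Hnrnpdl, its relative and its neighbour on chromosome 5, 54.64 kb away, had 195 and 206 CPM in KO EBd2 against 380 and 334 CPM in fl/fl EBd2. In ES cells Hnrnpdl was not called, with 243 and 234 CPM in KO against 237 and 225 CPM in fl/fl. Hnrnpu, a scaffold protein that binds chromatin and RNA, had 858 and 883 CPM in KO EBd2 against 1539 and 1552 CPM in fl/fl EBd2. That is a difference of -0.83 ± 0.03, and in ES cells it had 695 and 689 CPM in KO against 815 and 822 CPM in fl/fl.

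The poly(C) binder Hnrnpk had 755 and 727 CPM in KO EBd2 against 1088 and 1056 CPM in fl/fl EBd2, a difference of -0.53 ± 0.04, and 846 and 836 CPM in KO ES cells against 922 and 943 CPM in fl/fl ES cells. Hnrnpl, which binds CA-rich RNA, had 376 and 378 CPM in KO EBd2 against 639 and 619 CPM in fl/fl EBd2. Its ES cell levels were 509 and 512 CPM in KO against 605 and 588 CPM in fl/fl. Hnrnpll, its relative known for regulating exons of Ptprc in T cells, had 92.9 and 94.5 CPM in KO EBd2 against 151 and 143 CPM in fl/fl EBd2, while in ES cells the values were 99.5 and 102 CPM in KO against 113 and 117 CPM in fl/fl. In all 3 genes the libraries of both genotypes were apart at both stages. With 2 libraries against 2 this was also so of members not called, such as Prpf19 in ES cells. The smallest hnRNP differences in EBd2 were those of Hnrnpul1, at -0.32 ± 0.04, Hnrnph2, at -0.19 ± 0.05, and Hnrnpul2, at -0.15 ± 0.06. The call of Hnrnpul2 was lost without 5 of the 8 libraries in turn, at differences between -0.15 and -0.06 and edgeR adjusted p between 0.051 and 0.44, those left out being KO ES lot 1, both fl/fl ES lots, KO EBd2 lot 2 and fl/fl EBd2 lot 12.

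Promoters are shown for hnRNP genes with the largest and most typical falls. The Sf3b6 and Srsf5 promoters stand beside them, chosen because only these members' windows held 2 matches to the ETS core described below. Windows of 300 bases, 250 before to 50 after a start, were taken from RefSeq (GRCm38.p6) and found for 49 of the 56 members, 66 windows in all. Among the members for which no window was used were Sf3b4, Prpf18, Sf3b5, Hnrnpul2, U2af2 and Hnrnpll. Capitals mark the CCAAT box (CCAAT) and the core bound by ETS factors (CCGGAAG) on either strand, and no CCAAT match overlapped an ETS match in these windows. Each sequence runs 5′ to 3′ on the strand of its gene.
Hnrnpa1, chr15:103240147-103240446, plus strand: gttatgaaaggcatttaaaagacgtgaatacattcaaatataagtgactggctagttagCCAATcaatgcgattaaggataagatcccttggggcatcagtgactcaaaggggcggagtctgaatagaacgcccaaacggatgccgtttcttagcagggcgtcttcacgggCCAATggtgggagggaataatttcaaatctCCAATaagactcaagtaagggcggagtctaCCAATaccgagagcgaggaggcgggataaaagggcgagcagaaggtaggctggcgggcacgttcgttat
Hnrnpl, chr7:28810640-28810939, plus strand: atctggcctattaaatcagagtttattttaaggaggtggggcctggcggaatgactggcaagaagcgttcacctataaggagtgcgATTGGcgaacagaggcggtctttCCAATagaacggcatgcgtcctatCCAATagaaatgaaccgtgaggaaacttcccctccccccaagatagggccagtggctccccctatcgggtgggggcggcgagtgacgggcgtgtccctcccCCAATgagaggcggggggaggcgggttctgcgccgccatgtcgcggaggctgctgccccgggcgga
Hnrnph3, chr10:63023800-63024099, minus strand: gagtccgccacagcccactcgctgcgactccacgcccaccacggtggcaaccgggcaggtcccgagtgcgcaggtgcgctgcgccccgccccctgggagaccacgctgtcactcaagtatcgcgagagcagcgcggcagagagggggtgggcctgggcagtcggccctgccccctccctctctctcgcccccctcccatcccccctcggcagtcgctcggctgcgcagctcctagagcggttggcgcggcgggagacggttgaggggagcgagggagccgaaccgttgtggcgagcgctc
Sf3b6, chr12:4817358-4817657, plus strand: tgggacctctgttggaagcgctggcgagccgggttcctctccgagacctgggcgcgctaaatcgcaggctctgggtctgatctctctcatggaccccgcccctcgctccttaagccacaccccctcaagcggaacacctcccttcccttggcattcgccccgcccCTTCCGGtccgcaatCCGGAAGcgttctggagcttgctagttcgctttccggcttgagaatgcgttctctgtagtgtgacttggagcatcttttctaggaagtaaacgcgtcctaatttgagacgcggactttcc
Srsf5, chr12:80945249-80945548, plus strand: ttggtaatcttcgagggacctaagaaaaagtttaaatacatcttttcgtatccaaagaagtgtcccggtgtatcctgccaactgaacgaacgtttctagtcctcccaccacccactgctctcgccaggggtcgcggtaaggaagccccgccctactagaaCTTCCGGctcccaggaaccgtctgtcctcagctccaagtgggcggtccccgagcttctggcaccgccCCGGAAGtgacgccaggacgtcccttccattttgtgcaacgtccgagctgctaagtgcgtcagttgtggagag

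The Hnrnpa1 and Hnrnpl windows each held 4 CCAAT matches, and that of Hnrnph3 held neither motif. A window with 4 was also found for Hnrnpc, Hnrnpr and Hnrnpul1, whose log2 fold changes in KO EBd2 were -0.48, -0.70 and -0.32. No CCAAT match lay in the windows of Hnrnpd, Hnrnpdl, Hnrnpm and Hnrnpu, whose changes were -0.98, -0.83, -0.80 and -0.83. A link between the motif and the falls was not tested. A CCAAT match lay in a window of 13 of 18 hnRNP genes (72.2%), 9 of 20 spliceosome genes (45%) and 4 of 11 SR genes (36.4%), against 41.1% of the 27025 genes in the RefSeq set. The ETS core lay in a window of 2 of 18 hnRNP genes (11.1%), 10 of 20 spliceosome genes (50%) and 4 of 11 SR genes (36.4%), against 9.93% of all genes. The windows were also searched for the GC box (GGGCGG), E-box (CACGTG), NRF1 core (GCATGCGC), YY1 core (AAGATGGC) and TATA box (TATAAA). In this order, they lay in a window of 71.4%, 16.3%, 8.16%, 6.12% and 10.2% of the members with windows. The shares over all genes were 38.2%, 8.09%, 3.05%, 3.19% and 15.7%. Members' windows had a median GC content of 61.35%, against 52.7% over all 32851 windows, and some members have several overlapping windows. Such matches describe the letters in these windows and say nothing about binding.

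Among the SR genes, 9 of 11 fell in KO EBd2, 1 rose and 1 was not called, with a median log2 fold change of -0.62; of those that fell, Srsf5 turned to 0.01 with library sizes alone. Srsf3, the smallest SR protein and an adaptor of mRNA export, had 338 and 340 CPM in KO EBd2 against 658 and 639 CPM in fl/fl EBd2, a log2 fold change of -0.94 ± 0.05 (edgeR adjusted p = 1.4e-08). Srsf1, the founding member of the family, had 392 and 398 CPM in KO EBd2 against 722 and 707 CPM in fl/fl EBd2. Srsf2, a nuclear speckle protein, had 388 and 382 CPM in KO EBd2 against 615 and 619 CPM in fl/fl EBd2. The falls of these 3 genes passed the test beyond 1.5-fold, and their KO EBd2 levels lay well below those of fl/fl EBd2 in both libraries. Srsf7 had 216 and 214 CPM in KO EBd2 against 339 and 331 CPM in fl/fl EBd2, and Srsf6 had 295 and 305 CPM in KO EBd2 against 463 and 458 CPM in fl/fl EBd2. Srsf4, Srsf9 and Srsf10 fell by 0.58 to 0.64 on the log2 scale, and Srsf5 by 0.22 ± 0.04. Srsf11 was not called, with 271 and 297 CPM in KO EBd2 against 285 and 260 CPM in fl/fl EBd2, and its libraries overlapped. Srsf12, a little-expressed SR gene, was the only SR gene that rose, with 4.31 and 6.80 CPM in KO EBd2 against 2.83 and 1.5 CPM in fl/fl EBd2. This log2 fold change of 1.40 ± 0.32 (edgeR adjusted p = 2.9e-03) rests on few counts.

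Among the 25 spliceosome genes, 16 fell in KO EBd2, 3 rose and 6 were not called, with a median log2 fold change of -0.25; with library sizes alone 7 were called lower and 7 higher, and Prpf8, Prpf19 and Prpf38a turned to 0.05, 0.12 and 0.03. Prpf40b, whose protein belongs with the U1 particle, had 30.7 and 30.1 CPM in KO EBd2 against 61.1 and 62.9 CPM in fl/fl EBd2, a log2 fold change of -1.03 ± 0.06 (edgeR adjusted p = 7.5e-08). Of the SF3A and SF3B genes, 7 of 9 fell and Sf3b5 rose. Sf3b3 fell by 0.71 ± 0.03, Sf3b2 by 0.56 ± 0.03 and Sf3b6 by 0.55 ± 0.10. Sf3b1, which touches the branch point and is often mutated in myelodysplasia, had 404 and 402 CPM in KO EBd2 against 488 and 481 CPM in fl/fl EBd2. Sf3a1 had 217 and 216 CPM in KO EBd2 against 251 and 265 CPM in fl/fl EBd2. These falls of Sf3b1 and Sf3a1 were both of 0.26 on the log2 scale, smaller than that of every SR gene that fell other than Srsf5.

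All 3 U2AF genes fell in EBd2, by 0.29 to 0.38 on the log2 scale. U2af1 had 128 and 126 CPM in KO EBd2 against 169 and 162 CPM in fl/fl EBd2, U2af2 had 262 and 257 CPM in KO EBd2 against 327 and 330 CPM in fl/fl EBd2, and U2af1l4 fell by 0.29 ± 0.10. The call of U2af1l4 was lost without KO EBd2 lot 1, KO EBd2 lot 2 or fl/fl EBd2 lot 1, at edgeR adjusted p of 0.059, 0.10 and 0.26. Among the Prpf genes 6 of 13 fell, 2 rose and 5 were not called, a share of calls near the 62.2% of all genes called; 1 fell and 6 rose with library sizes alone. Prpf8, at the heart of the catalytic core, had 715 and 712 CPM in KO EBd2 against 766 and 848 CPM in fl/fl EBd2, and its call was lost without fl/fl EBd2 lot 12, at -0.10 and an edgeR adjusted p of 0.071. Prpf4b, a kinase of the tri-snRNP, had 144 and 164 CPM in KO EBd2 against 187 and 185 CPM in fl/fl EBd2. Prpf19, a ubiquitin ligase of the spliceosome, had 217 and 210 CPM in KO EBd2 against 236 and 225 CPM in fl/fl EBd2. Its difference of -0.11 ± 0.04 was not called without KO ES lot 1, fl/fl ES lot 2, KO EBd2 lot 2 or fl/fl EBd2 lot 1, at edgeR adjusted p of 0.053 to 0.17. Prpf38a fell by 0.20 ± 0.06, and was not called without KO EBd2 lot 2 or fl/fl EBd2 lot 1 (edgeR adjusted p = 0.075 and 0.086).

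The spliceosome genes that rose did so by little. Sf3b5, the smallest SF3B subunit, had 83.9 and 78.9 CPM in KO EBd2 against 76.1 and 66.3 CPM in fl/fl EBd2, a log2 fold change of 0.20 ± 0.08 (edgeR adjusted p = 0.041). Prpf3, a protein of the U4/U6 particle, had 85.4 and 89.3 CPM in KO EBd2 against 76.9 and 77.5 CPM in fl/fl EBd2, and Prpf4, which binds it, rose by 0.12 ± 0.04. The call of Sf3b5 was lost without either fl/fl ES lot, KO EBd2 lot 1 or fl/fl EBd2 lot 12 (edgeR adjusted p = 0.052 to 0.37), that of Prpf3 without KO EBd2 lot 2 (0.061), and that of Prpf4 without any 1 of the 4 EBd2 libraries (0.081 to 0.093). Prpf31, which ties the U4/U6 and U5 particles together, had 93.7 and 93.2 CPM in KO EBd2 against 99.7 and 88.6 CPM in fl/fl EBd2, so that the KO libraries lay between those of fl/fl. Among the members not called in EBd2 were Srsf11, Prpf6, Prpf18, Prpf31, Prpf39 and Sf3b4.

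**Figure D2:**
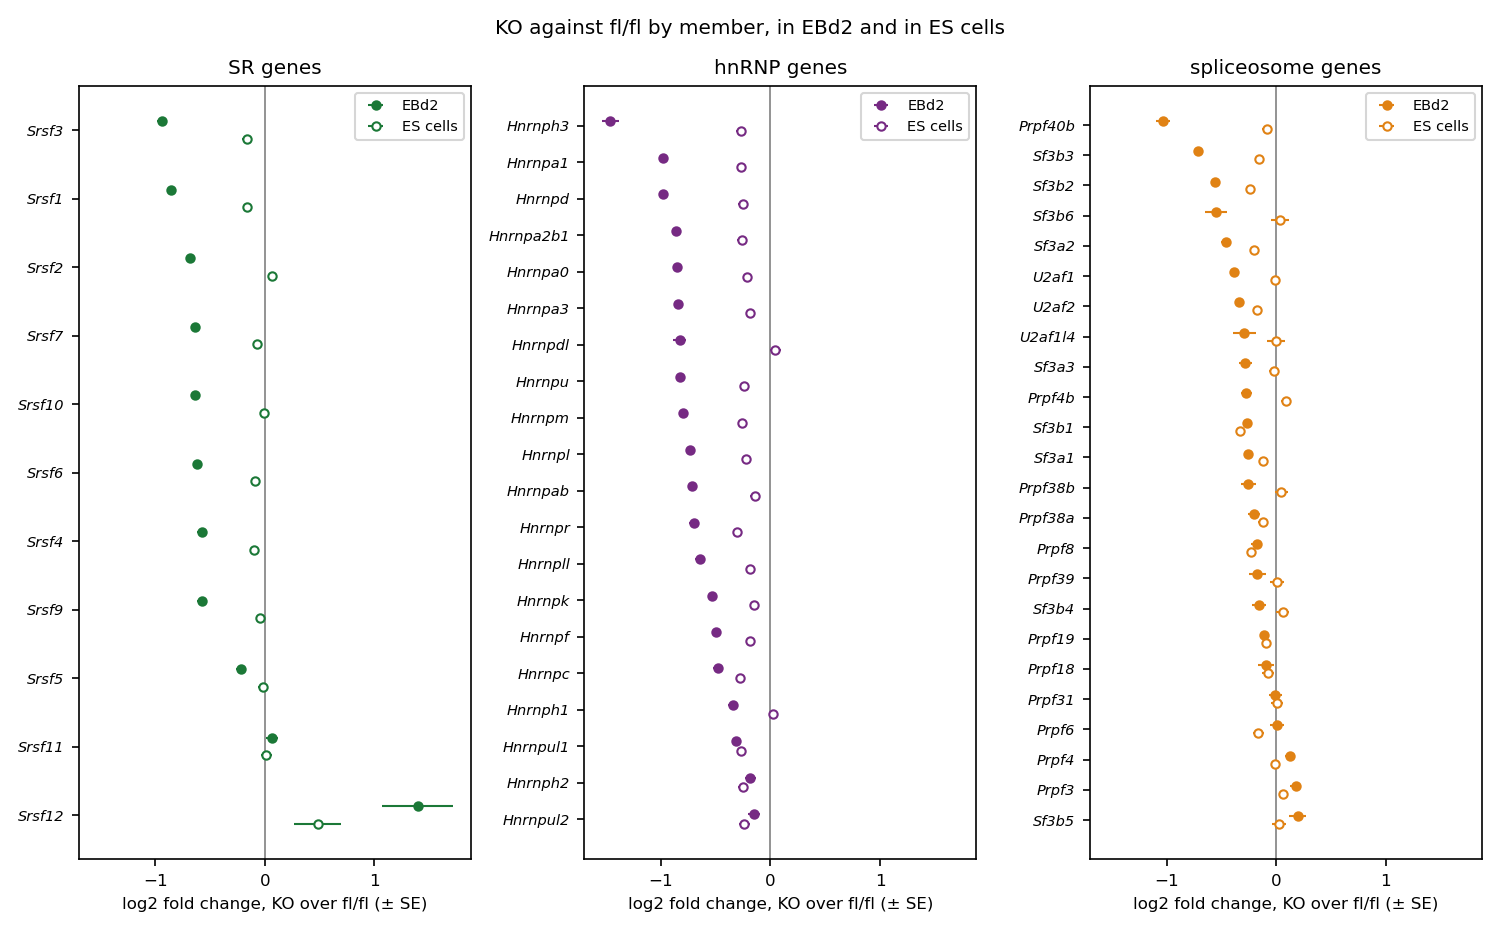
Log2 fold change of KO over fl/fl (x axis, ± SE of the edgeR fit) of the members reported by name, in EBd2 (filled) and in ES cells (open), with 1 panel per class. In EBd2 all hnRNP genes lie left of 0 (Hnrnph2 and Hnrnpul2 turn to 0.04 and 0.08 with library sizes alone), from -0.15 for Hnrnpul2 to -1.46 for Hnrnph3, while in ES cells the members other than Srsf12 lie within 0.33 of 0.

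In ES cells the differences between KO and fl/fl were small. Of the 56 members, 28 were called lower and none higher by the edgeR test, against 23.7% of all genes called, 10.9% higher and 12.8% lower. At an unadjusted p below 0.05, 1 member was higher by edgeR and 0 by DESeq2, whose adjusted calls were also 0 higher and 28 lower. These shares of all genes come from the fit with TMM factors, and with library sizes alone 4 members were called higher and 21 lower. None passed the test beyond 1.5-fold, against 0.103% of all genes. The hnRNP genes made up 18 of the 28 calls, as all but Hnrnpdl and Hnrnph1 fell, with a median log2 fold change of -0.24 in the class. The corresponding medians were -0.04 over SR genes, of which 2 fell, and -0.02 over spliceosome genes, of which 8 fell. With library sizes alone those 2 medians turned to 0.03 and 0.05.

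The steepest falls in ES cells were those of Sf3b1, Hnrnpr and Hnrnpc. Sf3b1 had 594 and 589 CPM in KO ES cells against 736 and 748 CPM in fl/fl ES cells, a log2 fold change of -0.33 ± 0.03 (edgeR adjusted p = 5.1e-05). Hnrnpr had 76.5 and 74.1 CPM in KO ES cells against 92.5 and 93.3 CPM in fl/fl ES cells, and in EBd2 73.0 and 73.1 CPM in KO against 120 and 117 CPM in fl/fl. Hnrnpc, which binds runs of uridine, had 564 and 537 CPM in KO ES cells against 656 and 676 CPM in fl/fl ES cells, and in EBd2 450 and 444 CPM in KO against 628 and 622 CPM in fl/fl. Hnrnpul1, a relative of Hnrnpu, had 237 and 246 CPM in KO ES cells against 293 and 287 CPM in fl/fl ES cells, and in EBd2 184 and 182 CPM in KO against 227 and 230 CPM in fl/fl. Its difference was -0.32 ± 0.04 in EBd2, where its call was lost with library sizes alone, and -0.27 ± 0.03 in ES cells.

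The other spliceosome genes called in ES cells included Prpf8, with 663 and 692 CPM in KO against 795 and 788 CPM in fl/fl, and U2af2, with 223 and 222 CPM in KO against 252 and 250 CPM in fl/fl. The call of Prpf8 was lost without KO ES lot 1, at -0.19 and an edgeR adjusted p of 0.054. Sf3a1 had 199 and 202 CPM in KO against 219 and 215 CPM in fl/fl, and was not called without any 1 of the 4 ES libraries (edgeR adjusted p = 0.083 to 0.19). U2af1 was not called, with 146 and 143 CPM in KO against 144 and 148 CPM in fl/fl, nor were Prpf4b (134 and 133 CPM in KO against 126 and 125 CPM in fl/fl), Prpf19 (149 and 148 CPM in KO against 158 and 159 CPM in fl/fl) and Prpf40b (59.8 and 59.7 CPM in KO against 65.4 and 61.5 CPM in fl/fl). The SR genes called in ES cells were Srsf1, with 361 and 359 CPM in KO against 412 and 393 CPM in fl/fl, and Srsf3, with 307 and 279 CPM in KO against 323 and 332 CPM in fl/fl. The call of Srsf1 was lost without fl/fl ES lot 1 (edgeR adjusted p = 0.068) and that of Srsf3 without KO ES lot 12, fl/fl ES lot 1 or fl/fl ES lot 2 (0.065 to 0.19). Srsf2 and Srsf7 were not called, with 305 and 299 CPM in KO against 288 and 289 CPM in fl/fl for Srsf2, and 249 and 239 CPM in KO against 258 and 257 CPM in fl/fl for Srsf7. Leaving out 1 ES library in turn also ended the calls of Hnrnpa3, Hnrnpk and Hnrnpul2 (without KO ES lot 1 or fl/fl ES lot 2), Hnrnpk again (without KO ES lot 12), Hnrnpll (without fl/fl ES lot 2), and Hnrnpab and Prpf6 (without KO ES lot 1 or either fl/fl lot), at edgeR adjusted p between 0.054 and 0.29. Between 13 and 18 hnRNP genes stayed called in these fits.

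**Figure D3:**
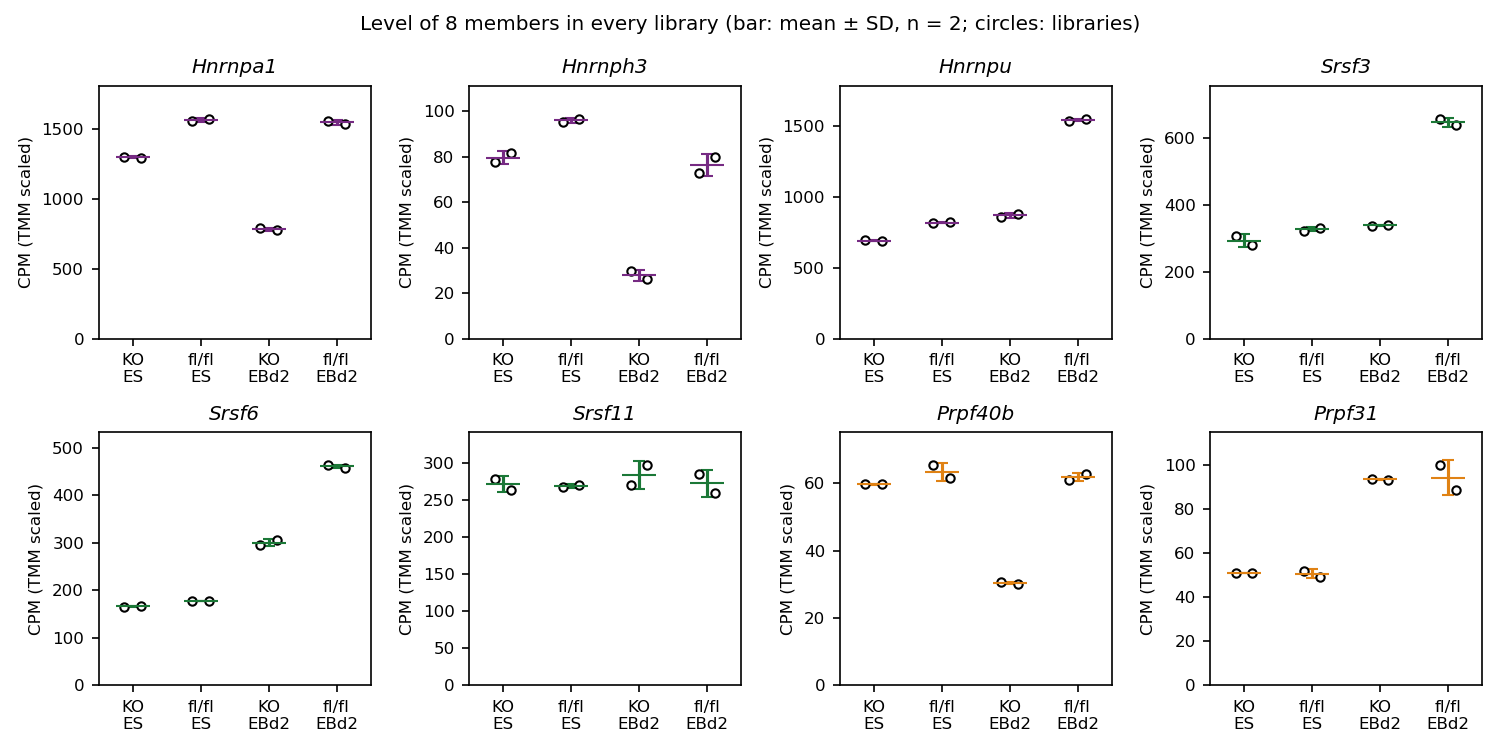
Level of 8 members in every library (CPM, TMM scaled; circles are libraries, bars are the mean ± SD of 2). KO EBd2 stands below the other groups in Hnrnpa1, Hnrnph3 and Prpf40b, Hnrnpu, Srsf3 and Srsf6 are highest in fl/fl EBd2, and KO and fl/fl EBd2 libraries overlap in Srsf11 and Prpf31.

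Between EBd2 and ES cells of the fl/fl genotype, 47 members were called by the edgeR test, 38 higher and 9 lower in EBd2, against 59% of all genes called, 28.9% higher and 30.1% lower. The median log2 fold change was 0.37 over the members and -0.02 over all genes. Beyond 1.5-fold, 10 members were called, all higher, against 18.4% of all genes. Of the SR genes 9 rose and 1 fell, of the hnRNP genes 13 rose and 5 fell, and of the spliceosome genes 16 rose and 3 fell. Srsf6 rose most, with 463 and 458 CPM in fl/fl EBd2 against 177 and 176 CPM in fl/fl ES cells, a log2 fold change of 1.38 ± 0.03 (edgeR adjusted p = 8.8e-11). Srsf2 and Hnrnpd rose by 1.10 ± 0.03 and 1.02 ± 0.04. Sf3b1 fell by 0.62 ± 0.03, Hnrnpul1 by 0.35 ± 0.03, and Prpf18, a factor of the second splicing step, had 42.6 and 48.8 CPM in fl/fl EBd2 against 63.4 and 64.4 CPM in fl/fl ES cells. Hnrnpa1 did not differ beyond its spread, at -0.01 ± 0.03. Srsf12 fell by 0.93 ± 0.32, and its call was lost without fl/fl ES lot 2 or fl/fl EBd2 lot 12 (edgeR adjusted p = 0.092 and 0.27).

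Between EBd2 and ES cells of the KO genotype, 44 members were called by the edgeR test, 23 higher and 21 lower in EBd2, against 64.8% of all genes called, 31.7% higher and 33.1% lower. With library sizes alone, which moved the median of all genes to 0.14, 32 members were called higher and 11 lower. Beyond 1.5-fold, 2 members were higher and 4 lower, against 22.6% of all genes. Of the hnRNP genes 7 rose and 11 fell, of the SR genes 5 rose and 4 fell, and of the spliceosome genes 11 rose and 6 fell. Hnrnph3 fell by 1.52 ± 0.07, Prpf40b by 0.97 ± 0.06, Hnrnpa3 by 0.77 ± 0.04 and Hnrnpa1 by 0.73 ± 0.03, and these were the 4 beyond 1.5-fold. Prpf31 rose most, with 93.7 and 93.2 CPM in KO EBd2 against 51.1 and 50.9 CPM in KO ES cells, a log2 fold change of 0.87 ± 0.06, and it had 99.7 and 88.6 CPM in fl/fl EBd2 against 52.0 and 49.1 CPM in fl/fl ES cells. Srsf6 rose by 0.86 ± 0.03, with 295 and 305 CPM in KO EBd2 against 165 and 166 CPM in KO ES cells. Sf3b5 rose by 0.54 ± 0.07, with 83.9 and 78.9 CPM in KO EBd2 against 59.0 and 52.6 CPM in KO ES cells.

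**Figure D4:**
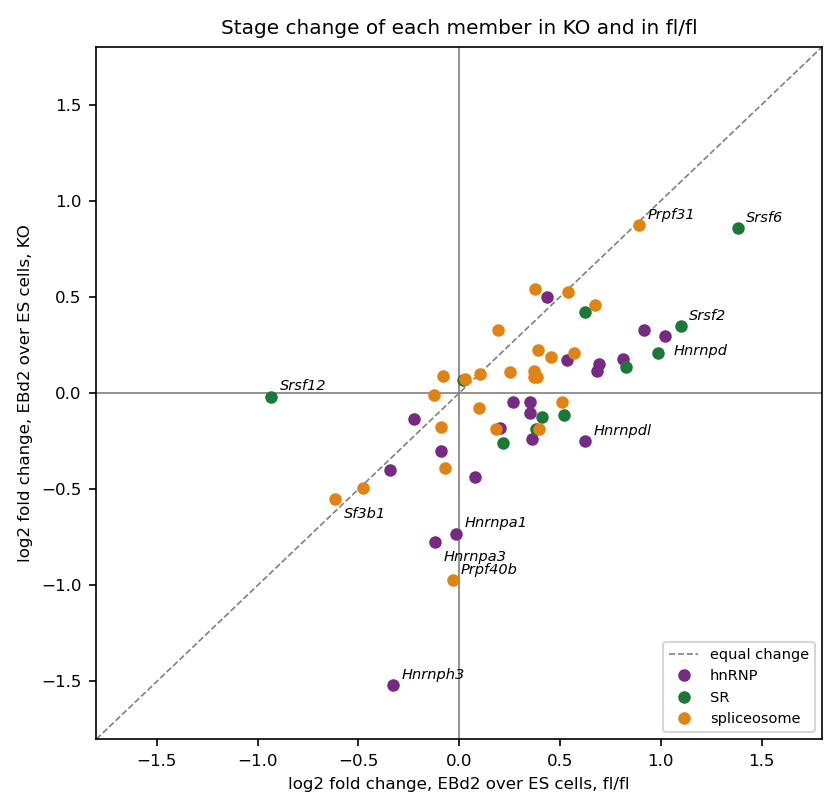
Log2 fold change of EBd2 over ES cells of each of the 56 members in KO (y axis) against that in fl/fl (x axis), coloured by class, with a dashed line of equal change. Of the 56 points 46 lie below the line, among them Prpf31 close to it, and Hnrnph3, Prpf40b, Hnrnpa3 and Hnrnpa1 lie lowest. With library sizes alone 12 members were called above the line and 30 below.

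The difference between the KO and fl/fl stage changes was tested as the interaction of genotype and stage, which equals the genotype difference in EBd2 minus that in ES cells. It was negative for 46 of the 56 members, and 37 were called by the edgeR test, all negative, against 48% of all genes called, 22.4% positive and 25.7% negative. At an unadjusted p below 0.05, 2 members were positive by edgeR and 1 by DESeq2, whose adjusted calls were 0 positive and 36 negative. With library sizes alone, which moved the median of all genes to 0.15, 12 members were called positive and 30 negative. Beyond 1.5-fold 8 members were called, all negative, against 14.1% of all genes. The called members were 17 of 20 hnRNP, 9 of 11 SR and 11 of 25 spliceosome genes, with class medians of -0.53, -0.53 and -0.17. The steepest were Hnrnph3 at -1.19 ± 0.09 (edgeR adjusted p = 1.1e-06), Prpf40b at -0.94 ± 0.08 and Hnrnpdl at -0.88 ± 0.08. The smallest called was that of Sf3a1, at -0.14 ± 0.05, which turned to 0.02 with library sizes alone, and whose call was lost on leaving out any 1 library other than fl/fl EBd2 lot 1 (edgeR adjusted p = 0.061 to 0.16). The hnRNP genes not called were Hnrnph2, Hnrnpul1 and Hnrnpul2 at 0.07 ± 0.07, -0.05 ± 0.05 and 0.09 ± 0.08. Sf3b1, Prpf8 and Prpf31 were not called, at 0.06 ± 0.04, 0.05 ± 0.06 and -0.02 ± 0.08.

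Levels of different genes were compared per length of exon, as TPM (counts per length of exon, scaled to a common sum), within a group only. Hnrnpa1 was the highest member in fl/fl EBd2, KO ES cells and fl/fl ES cells, with means of 1394, 1231 and 1427 TPM. In KO EBd2 it had 846 TPM, inside the range of Hnrnpab, which came first there with a mean of 850 TPM and 833 and 866 TPM in its libraries. Hnrnpf followed in KO EBd2 with 817 TPM and was the third in fl/fl EBd2 with 962 TPM. The highest SR gene was Srsf2, with 443 TPM in KO EBd2 and 592 TPM in fl/fl EBd2, and the highest spliceosome gene was Prpf8, with 326 TPM in KO EBd2 and 307 TPM in fl/fl EBd2. Hnrnph3 was number 50 of the 56 in KO EBd2, with 30.0 TPM, and number 41 in fl/fl EBd2, with 68.7 TPM. Srsf12 was the lowest in all 4 groups, with 1.94 to 6.02 TPM, and Hnrnpr was next above it, with 10.1 to 15.1 TPM. The place of Hnrnpr depends on its length, which takes in all annotated exons. That length was 22199 bases, against 11967 bases for Prpf39, the next longest. Without division by length Hnrnpr was not among the lowest, with a mean of 73.0 CPM in KO EBd2 against 30.4 CPM for Prpf40b.

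Some members share reads with near-identical copies. The processed pseudogene Gm5641 shares all its 50-base words with Hnrnpa3 and had 110492 counts over all libraries, more than the 88070 of Hnrnpa3 itself. It had 549 and 564 CPM in KO EBd2 against 1065 and 1093 CPM in fl/fl EBd2, so it moved with the gene. Gm10052, a copy of Hnrnpa1, had 14687 counts against 165772, and Gm9761, of which 83.3% of words lie in Srsf3, had 3925 against 44564. With copies added to their gene, the KO over fl/fl difference in EBd2 was -1.03 for Hnrnpa1, -0.90 for Hnrnpa3 and -0.92 for Srsf3 on the log2 scale, while the fall of Hnrnpa3 between fl/fl EBd2 and ES cells was no longer called (edgeR adjusted p = 0.83). The same was so of the fall of U2af1l4 in KO EBd2, when Gm49396, a read-through gene on the same strand, was added (edgeR adjusted p = 0.15). The call of Hnrnpa3 between fl/fl stages was also lost without fl/fl ES lot 2 or fl/fl EBd2 lot 12 (edgeR adjusted p = 0.15 and 0.087). Exons of opposite-strand genes overlap some members, among them Hnrnpab (29.1% of its exon length, with Phykpl), Sf3a2 (16.1%, with Plekhj1), Srsf2 (15.6%, with Mettl23) and Prpf39 (5.01%, with Fkbp3, which had 31000 counts against 8333). No source used here gives the strand setting of the counting, so reads of these pairs cannot be told apart.

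Other genes of the splicing pathway, outside the symbol rule, were read from 4 lists. Of all genes, 30.7% were called higher and 31.5% lower in KO EBd2, and 10.9% higher and 12.8% lower in KO ES cells. Of 28 SR kinases and SR-related genes tested, 1 rose and 23 fell in KO EBd2, with a median log2 fold change of -0.37. Rnps1, which links splicing to the exon junction complex, had 195 and 193 CPM in KO EBd2 against 338 and 337 CPM in fl/fl EBd2, and Srrm2, a core protein of nuclear speckles, had 740 and 763 CPM in KO EBd2 against 1199 and 1277 CPM in fl/fl EBd2. Tra2b, an SR-like activator, fell by 0.64 ± 0.03 and the SR protein kinase Srpk1 by 0.59 ± 0.04. In ES cells 11 of the 28 fell, among them Acin1, by 0.22 ± 0.03, and Dyrk1a, by 0.31 ± 0.05. Of 66 further snRNP and spliceosome genes, 6 rose and 46 fell in KO EBd2, with a median of -0.27, and 1 rose and 21 fell in KO ES cells. Snrpn, a brain-enriched Sm protein from an imprinted locus, had 93.9 and 90.9 CPM in KO EBd2 against 258 and 263 CPM in fl/fl EBd2, a difference of -1.5 ± 0.05. Sart3, which recycles the U4/U6 particle, fell by 1.03 ± 0.06 in KO EBd2 and by 0.35 ± 0.05 in KO ES cells, while the helicases Ddx39b and Dhx15 fell by 0.85 ± 0.04 and 0.55 ± 0.04 in KO EBd2. Xab2 fell in ES cells, by 0.26 ± 0.04, and its EBd2 difference of -0.04 ± 0.05 was not called.

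Of the 13 minor spliceosome genes, 2 rose, 3 fell and 8 were not called in KO EBd2, fewer calls than the 62.2% of all genes called there, with a median log2 fold change of -0.16. Zcrb1 fell by 0.90 ± 0.08 and Pdcd7 by 0.52 ± 0.08, while Zrsr1, a relative of U2af1, rose by 0.54 ± 0.09, and Armc7 had 6.96 and 6.62 CPM in KO EBd2 against 3.37 and 1.62 CPM in fl/fl EBd2. In ES cells Txnl4b rose by 0.64 ± 0.14 and Pdcd7 fell by 0.20 ± 0.06. Of 46 other splicing regulators tested, 6 rose and 32 fell in KO EBd2, with a median of -0.42, and 6 rose and 15 fell in KO ES cells, those that rose at a share near that of all genes. Ptbp2, the neuronal relative of the polypyrimidine tract binder Ptbp1, had 34.7 and 40.2 CPM in KO EBd2 against 90.5 and 94.4 CPM in fl/fl EBd2. The paraspeckle proteins Nono and Sfpq fell by 0.77 ± 0.03 and 0.81 ± 0.04 and the poly(C) binder Pcbp1 by 0.93 ± 0.04 in KO EBd2. In ES cells Nono and Ewsr1 fell by 0.25 each. Under scaling by library sizes alone, which moved the median of all genes to 0.23 in EBd2, 3 SR kinases and SR-related genes were called higher and 14 lower in KO EBd2, with a median of -0.14. Of the further snRNP and spliceosome genes 14 were then higher and 30 lower, with a median of -0.04, and of the minor spliceosome genes 5 were higher and 2 lower, with a median of 0.06. Of the other regulators 9 were higher and 26 lower, with a median of -0.19. In KO ES cells 3 SR kinases and SR-related genes, 12 further snRNP and spliceosome genes and 9 other regulators were then lower.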

How the data were processed

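Raw counts of reads per gene symbol in 8 libraries were used as the authors deposited them, as whole numbers with no normalization. Per the labels' protocols, poly(A) RNA was taken with magnetic beads after a spin-column extraction. The submitters' processing notes name Trim Galore 0.6.7, and GRCm38 and mm10 as builds. No source used here gives the aligner, counting tool, annotation, strand setting or treatment of reads matching several genes, so values of genes with near-identical copies are uncertain. Groups follow the sample titles. A member that enters the fits and counts is not reported by name here.

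Counts were analysed with R 4.3.3 and edgeR 4.0.16. filterByExpr left 16542 genes, libraries were scaled by TMM factors, and a model of 4 group means was fitted to all 8 libraries. The quasi-likelihood test (two-sided) was applied to 5 contrasts, with Benjamini-Hochberg adjustment over all genes tested and a threshold of 0.05. A fold of 1.5 was tested with glmTreat. The standard error (SE) of a log2 fold change is its size divided by the square root of F. The biological coefficient of variation was 3.4%, on 4 residual and 7.05 (median) prior degrees of freedom. The fit was also run on simulated counts with a fixed spread and few changed genes. That setting is unlike these data and does not bear on the scaling between libraries, so no result rests on it. The lowest count of a member in a library was 13. TPM was computed from the length of all exons in GENCODE vM21, to which all 56 members matched once. Near-identical copies share words of 50 bases with a member over at least 25% of their longest transcript.

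The members, the 4 lists of other splicing genes and the marker lists were chosen with earlier results of these data known. Levels in every library are given for 18 members picked by name. Per contrast, levels are also given for up to 3 called members with the largest rise and the largest fall. These had at least 5 CPM in the higher group and groups that do not overlap. For Prpf3, Prpf18, Sf3b5 and Srsf12 only the groups of the contrasts that picked them are given. From the other lists, up to 4 called genes with the smallest p in EBd2 and 2 in ES cells are named. Alternatives were RLE scaling, library sizes alone, other filters on low counts, DESeq2 1.42.0, only the libraries compared, lots as a block, leaving out each library, thinning to the shallowest library, leaving out mitochondrial and Gm genes and, chosen after seeing the data, adding near-identical copies to their gene.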

Additional observations from a re-analysis of the deposited data

Results flagged for a closer look

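For 22 members described by name in every library, the difference between KO and fl/fl differed between EBd2 and ES cells by the interaction test of edgeR (adjusted p below 0.05). Of all genes tested, 48% were called in this test, 22.4% positive and 25.7% negative. The 22 are only the called ones among the named members, and Hnrnph3, Prpf40b and Hnrnpdl were also picked for the size of this value. Their number is therefore not comparable with the share of all genes. Calls over all members are given above. The members' values are the log2 difference in EBd2 minus that in ES cells. Among the hnRNP genes it was -1.19 for Hnrnph3, -0.875 for Hnrnpdl, -0.727 for Hnrnpd, -0.717 for Hnrnpa1, -0.656 for Hnrnpa3, -0.599 for Hnrnpa2b1, -0.587 for Hnrnpu, -0.515 for Hnrnpl, -0.455 for Hnrnpll, -0.393 for Hnrnpr, -0.385 for Hnrnpk and -0.209 for Hnrnpc. Among the SR genes it was -0.775 for Srsf3, -0.748 for Srsf2, -0.693 for Srsf1, -0.565 for Srsf7 and -0.522 for Srsf6. Among the spliceosome genes it was -0.942 for Prpf40b, -0.367 for U2af1, -0.361 for Prpf4b, -0.167 for U2af2 and -0.141 for Sf3a1. Not all of these calls held with library sizes alone. There the value of Hnrnpc was -0.052 and not called (edgeR adjusted p = 0.39), and that of Sf3a1 turned positive, as given above. The summed markers of general pluripotency, naive ES cells, formative epiblast, endoderm, streak and feeder cells also differed between KO and fl/fl EBd2, as given above. Their part in the interaction values was not tested.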

How the results depend on the processing

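The count of members called stayed within 1.5 times its main value in all 5 contrasts under every alternative run, and 15 of 28 calls in ES cells, 33 of 49 in EBd2, 41 of 47 between fl/fl stages, 27 of 44 between KO stages and 30 of 37 interaction calls were kept under all of them. Library sizes alone, without TMM factors (1.10 and 1.11 in KO EBd2 against 0.944 and 0.950 in fl/fl EBd2), moved the most. With them, 0 SR and 5 spliceosome genes were called lower in KO ES cells (2 and 8 with TMM), 7 spliceosome genes were lower in KO EBd2 (16), 6 spliceosome genes had a called negative interaction (11), and 6 members passed the test beyond 1.5-fold in EBd2 (18) and 2 in the interaction (8). Among the members reported by name and the other genes named, directions reversed with library sizes alone for the following. In KO against fl/fl EBd2, log2 fold changes turned to 0.041 for Hnrnph2, 0.079 for Hnrnpul2, 0.12 for Prpf19, 0.22 for Prpf31, 0.026 for Prpf38a, 0.049 for Prpf8, 0.0062 for Srsf5 and 0.189 for Xab2. In KO EBd2 against KO ES cells, they turned to 0.101 for Hnrnpf, 0.043 for Hnrnpll, 0.104 for Hnrnpr, 0.014 for Hnrnpul2, 0.135 for Prpf3, 0.1035 for Sf3b3, 0.034 for Srsf10, 0.0235 for Srsf9, 0.125 for Acin1, 0.134 for Dyrk1a and 0.044 for Dhx15. The interaction turned to 0.145 for Prpf19 and 0.016 for Sf3a1. RLE scaling gave 4 SR genes lower in KO ES cells. Thinning to the shallowest library, 7858452 counts, gave 0 SR and 4 spliceosome genes there, so depth limits these small calls, and EBd2 libraries are shallower than those of ES cells. A stricter filter gave 5 interaction calls beyond 1.5-fold. Leaving out 1 library in turn gave 0 to 2 SR genes and 5 to 8 spliceosome genes lower in KO ES cells, and 5 to 7 interaction calls beyond 1.5-fold. The cause of these changes was not tested beyond the scaling, filter and depth that define each alternative.

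Whether lots 1, 2 and 12 pair the libraries could not be settled. Correlations between deviations of libraries of lot 1 from their group means ran from -0.0937 to 0.154, and the groups of each comparison share lot 1 only. The other library of a group is of lot 2 or lot 12, so most of these correlations mix unlike lots. KO ES cells and fl/fl EBd2, both of lots 1 and 12, gave the highest value, 0.154. For fl/fl ES cells and KO EBd2, both of lots 1 and 2, it was 0.0189. With the lots as a block, 1 SR gene was called lower in KO ES cells.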
